A study of Canis lupus familiaris with 10 samples.

Results

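A group of 8 genes of blood vessel growth and vascular peptide signalling was followed in canine visceral adipose tissue (VAT) before and after long-term hypercortisolism. These genes are the growth factors VEGFC and FGF1, the apelin receptor APLNR, the peptidases ECE1 and ENPEP, and the vascular genes ESM1, HEY1 and PLXDC1. All 8 were matched by symbol and Ensembl identifier among the 19856 genes of the count tables. All 8 also passed the filter for low counts, which asked for 10 reads or more in any 1 library and kept 13577 genes. The 8 genes were chosen from the study's own list of differentially expressed genes, that is, by their difference between Post-ACTH and Pre-ACTH in these samples. That difference is therefore described and not used as a test.

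RNA-seq was available for VAT of 5 adult Beagle dogs (3 males and 2 females). Each dog gave 1 sample at a laparotomy before treatment (Pre-ACTH) and 1 at a further laparotomy after 25 weeks of tetracosactide (Post-ACTH), an ACTH analog that drives the adrenal glands to release cortisol. Osmotic pumps delivered it, at a daily dose of 1.3 to 1.95 μg/kg at first and 6 to 10 μg/kg finally. No untreated dogs were analysed here, so the treatment, the elapsed time and the earlier operation cannot be told apart. Libraries held 8728330 to 14867529 counted reads, the smallest being the Pre-ACTH library of dog 3. Values are normalized counts, i.e., read counts scaled by TMM to a library of mean size.

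Adipose tissue grows and shrinks together with its capillary bed, and endothelial growth factors, Notch signals and vasoactive peptides adjust this bed. VEGF-C acts mainly on lymphatic endothelium and FGF-1 on many cell types, whereas apelin, endothelin and angiotensin peptides set vessel tone and are made or degraded by peptidases of the cell surface. In bulk tissue, fewer cells of a type and less RNA per cell cannot be told apart. Gene lengths of the build used for counting were not used here, so levels are not compared between genes.

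Of the 8 genes, 7 had lower counts in Post-ACTH and 1, ECE1, had higher counts. Each gene moved in its direction in all 5 dogs, as did 26.9% of all tested genes in one direction or the other. The groups did not overlap for 5 of the 8 genes (FGF1, APLNR, ENPEP, ESM1 and PLXDC1), compared with 9.04% of all tested genes. In the paired edgeR quasi-likelihood test, 3 of the 8 were called at FDR under 0.01 (APLNR, ENPEP and PLXDC1), compared with 1.97% of all genes, and all 8 at FDR under 0.05, compared with 11.1%. The median log2 fold change was -1.15 over the 8 genes and -0.0021 over all tested genes. Because the same contrast chose the genes, nothing is read from these shares. Nearest to the threshold were APLNR on its inner side (adjusted p = 0.00749) and FGF1 on its outer side (adjusted p = 0.0142).

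**Figure D1:**
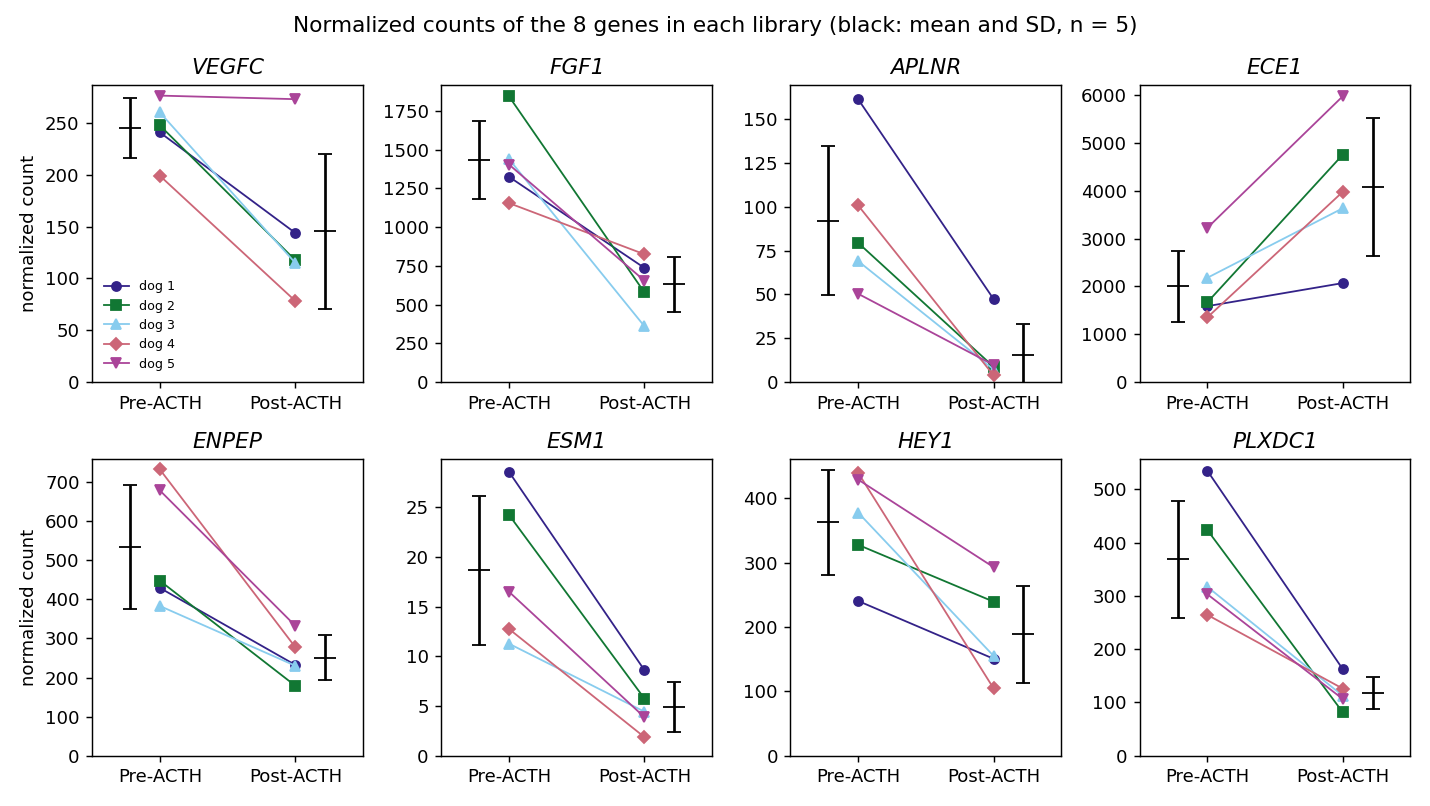
Normalized count (vertical axis, linear, from 0) of each gene in the 10 libraries, with a line joining the Pre-ACTH and Post-ACTH sample of each dog and black bars for the mean and SD of 5 samples; the lower end of the Post-ACTH bar of APLNR is cut at 0. Post-ACTH values of APLNR lie between 3.73 and 47.3, below all Pre-ACTH values, and ECE1 is the gene whose lines run upwards.

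The growth factors were VEGFC and FGF1. VEGFC (ENSCAFG00000008409), a ligand of the receptor FLT4 and a driver of lymphatic vessel growth, had 241, 248, 261, 199 and 277 normalized counts in Pre-ACTH dogs 1 to 5 and 144, 118, 115, 78.3 and 273 in Post-ACTH. Dog 5 hardly differed between its samples, whereas the Post-ACTH values of the other 4 dogs lay below every Pre-ACTH value. The averages were 245 ± 29.0 and 146 ± 75.1 (SD, n = 5 each), with a log2 fold change of -0.86 (SE 0.19). FGF1 (ENSCAFG00000031965), a secreted factor that binds all FGF receptors, had 1325, 1845, 1439, 1155 and 1404 normalized counts in Pre-ACTH and 736, 578, 359, 825 and 654 in Post-ACTH. The lowest Pre-ACTH and the highest Post-ACTH value both came from dog 4, and the groups were apart. The averages of FGF1 were 1434 ± 254 and 630.4 ± 177 (SD, n = 5), with a log2 fold change of -1.22 (SE 0.21), i.e., 2.33-fold lower.

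The receptor APLNR (ENSCAFG00000007958), a G protein-coupled receptor of endothelium and other cells for the peptides apelin and apela, showed the largest change of the 8 genes. It had 161, 79.4, 69.0, 101 and 50.3 normalized counts in Pre-ACTH dogs 1 to 5 and 47.3, 8.61, 7.08, 3.73 and 9.66 in Post-ACTH. Dog 1 was the highest in both groups, and its Post-ACTH value was close to the lowest Pre-ACTH value, that of dog 5. APLNR fell from 92.2 ± 42.8 to 15.3 ± 18.0 (SD, n = 5; log2 fold change -2.89, SE 0.39), or 7.43-fold. Without dog 1, the Post-ACTH average was 7.27 ± 2.59 (SD, n = 4) and the fitted log2 fold change -3.32 (SE 0.39). The Post-ACTH libraries held 4 to 44 reads of APLNR and reached 10 reads in 2 of 5 dogs, so the size of its change is less certain than that of genes with more reads.

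The peptidases moved in opposite directions. ECE1 (ENSCAFG00000014920), which cleaves big endothelin to the vasoconstrictor endothelin-1, had 1585, 1665, 2179, 1350.1 and 3223 normalized counts in Pre-ACTH and 2068, 4755, 3634, 3979 and 5978 in Post-ACTH. The groups overlapped, since the Pre-ACTH values of dogs 3 and 5 exceeded the Post-ACTH value of dog 1, although the count was higher after treatment within each dog. The averages of ECE1 were 2001 ± 747 and 4083 ± 1442 (SD, n = 5; log2 fold change 1.02, SE 0.18). ENPEP (ENSCAFG00000011580), aminopeptidase A, which trims angiotensin II to angiotensin III, had 429, 448, 383, 732 and 679 normalized counts in Pre-ACTH and 232, 179, 230.1, 278 and 332 in Post-ACTH. All Post-ACTH values lay below all Pre-ACTH values, and dogs 4 and 5 were the 2 highest in both groups. ENPEP fell from 534 ± 159 to 250.2 ± 57.7 (SD, n = 5; log2 fold change -1.08, SE 0.12), and its log2 ratios, from -1.39 to -0.73, were the most alike between dogs among the 8 genes (SD 0.28).

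The remaining genes, ESM1, HEY1 and PLXDC1, are known from endothelium, but the cells that express them here cannot be told from bulk tissue. ESM1 (ENSCAFG00000018381), endocan, a proteoglycan secreted by endothelial cells, was counted with 8 to 29 reads per Pre-ACTH library and 2 to 8 reads per Post-ACTH library. Its normalized counts were 28.6, 24.2, 11.3, 12.7 and 16.5 in Pre-ACTH and 8.60, 5.74, 4.42, 1.86 and 3.86 in Post-ACTH. The groups did not overlap, but ESM1 reached 10 reads in 4 Pre-ACTH and 0 Post-ACTH libraries, so it passed the filter through the group in which it was higher. Its log2 fold change of -1.93 had an SE of 0.36.

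HEY1 (ENSCAFG00000008391), a transcriptional repressor switched on by Notch in endothelium, had 240.2, 327, 377, 439 and 429 normalized counts in Pre-ACTH and 150.5, 239, 155, 104 and 293 in Post-ACTH. The groups overlapped through the Pre-ACTH value of dog 1 and the Post-ACTH value of dog 5. The averages of HEY1 were 363 ± 81.7 and 188 ± 76.0 (SD, n = 5), with a log2 fold change of -0.99 (SE 0.23). PLXDC1 (ENSCAFG00000016530), also known as a marker of tumor endothelium and a receptor of the factor encoded by SERPINF1, had 535, 423, 317, 264 and 303 normalized counts in Pre-ACTH and 162, 81.3, 112, 126 and 106 in Post-ACTH. Every Post-ACTH value was well under the lowest Pre-ACTH value. PLXDC1 fell from 368 ± 110.1 to 118 ± 29.7 (SD, n = 5; log2 fold change -1.63, SE 0.18).

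**Figure D2:**
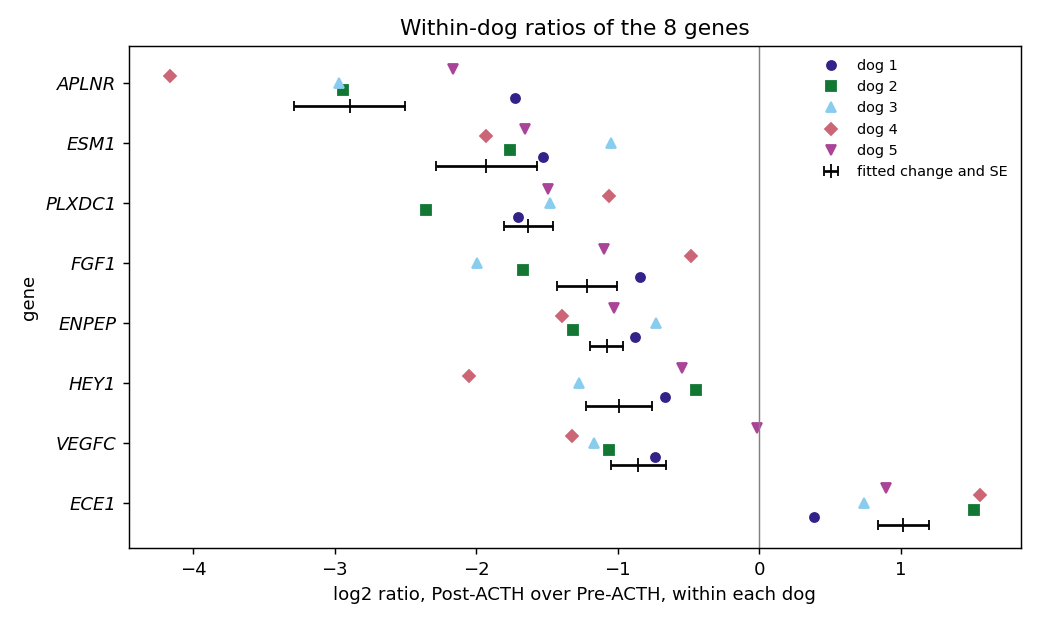
Log2 ratio of Post-ACTH over Pre-ACTH (horizontal axis) for each gene, with 1 symbol per dog and a black bar for the fitted log2 fold change and its SE. All symbols of ECE1 lie above 0 and those of the other genes below 0, from -4.17 for APLNR in dog 4 to -0.018 for VEGFC in dog 5.

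The dogs did not respond in one order. Over the 7 genes with lower counts, the median log2 ratio within a dog ran from -0.88 in dog 1 to -1.67 in dog 2, and APLNR was the gene with the lowest ratio in each of the 5 dogs. Dog 4 had the lowest ratio of the 5 dogs for 5 of the 7 genes (VEGFC, APLNR, ENPEP, ESM1 and HEY1), yet the ratio nearest to 0 for the other 2, FGF1 (-0.49) and PLXDC1 (-1.06). Dog 1 showed the smallest ratio of ECE1 (0.38), and dogs 2 and 4 the largest (1.51 and 1.56).

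The spread between dogs also differed between genes. The coefficient of variation of VEGFC was 11.8% in Pre-ACTH and 51.6% in Post-ACTH, and it was smaller in Post-ACTH for 3 of the 8 genes (ECE1, ENPEP and PLXDC1), compared with 54.5% of all tested genes. The medians over the 8 genes were 29.8% and 37.8%, against 17.6% and 16.5% over all tested genes. In Post-ACTH, VEGFC was 273 in dog 5 and 78.3 to 144 in the other dogs. APLNR was 47.3 in dog 1 and 3.73 to 9.66 in the other dogs. APLNR and ESM1 rest on 4 to 44 and 2 to 8 reads in this group. The part of single dogs and of few reads in the Post-ACTH coefficients was not tested. To compare profiles, log2 CPM values of each gene were centred on their mean over the 10 libraries, and the root mean square (RMS) difference between genes was taken. VEGFC and HEY1 were the closest pair (0.36), followed by ESM1 and PLXDC1 (0.40) and by FGF1 and PLXDC1 (0.43). These log2 CPM values carry a prior count of 2, which makes the changes of genes with few reads, such as ESM1, smaller in size. How far the prior count enters the closeness of ESM1 to PLXDC1 was not tested. APLNR and ECE1 were the farthest apart (2.27), and among the genes with lower counts APLNR differed from the other 6 by 0.84 to 1.33.

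Further genes of the same pathways came from 9 lists with 97 genes. Symbols were taken from the study's list of differentially expressed genes, which named 23 of these 97, i.e., the 8 genes and 15 others, whereas the other 74 were not analysed here. Of the 15, 11 had lower and 4 higher counts in Post-ACTH, with a median log2 fold change of -0.89. In the same edgeR test 6 of the 15 were called at FDR under 0.01, 5 lower and 1 higher, against 1.22% and 0.751% of all tested genes. As these genes too were selected on this contrast, their direction is no independent evidence. Without dog 2 or dog 5, 0 of the 15 were called (0.00743% and 0.17% of all tested genes), and without dog 3, 1 was (0.0887%). With so few calls among all genes, these counts tell nothing particular of the 15.

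The lists gave ECE1 and ENPEP some context. For the renin-angiotensin system, 3 of 12 genes had a symbol. AGT, which encodes angiotensinogen, the precursor of all angiotensins, fell (mean 1630.1 ± 416 normalized counts before and 298 ± 58.2 after, SD, n = 5; log2 fold change -2.43, SE 0.20, edgeR adjusted p = 0.00213). AGT and ENPEP were both lower in all 5 dogs. ANPEP, aminopeptidase N, which acts on angiotensin III, averaged 465 ± 140 and 783 ± 215 (log2 fold change 0.76, SE 0.17, adjusted p = 0.0325), and was higher in 4 of 5 dogs. For the endothelin system, ECE1 was the 1 gene of 7 with a symbol, so its substrates and receptors were not analysed here.

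Beside APLNR, ADM, which encodes the vasodilator adrenomedullin, averaged 773 ± 213 and 405 ± 49.2 normalized counts (SD, n = 5; log2 fold change -0.89, SE 0.19, adjusted p = 0.0249). NPR3, the clearance receptor of natriuretic peptides, averaged 597 ± 146 and 311 ± 195 (log2 fold change -1.09, SE 0.24, adjusted p = 0.0282). Neither was called, and both had lower counts in all 5 dogs. Beside FGF1, FGFBP1, a carrier that releases FGFs from the matrix, gave a fitted log2 difference of -2.22 (SE 0.38, adjusted p = 0.0140). Its 5 Pre-ACTH values included 292 in dog 1 and at most 86.2 in the other dogs. Beside HEY1, NOTCH3, a Notch receptor of mural cells, had a fitted log2 difference of -0.67 (SE 0.19, adjusted p = 0.0597) and was lower in 4 of 5 dogs.

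The angiopoietin list held the only increase that was called among the 15 genes. ANGPT4, a ligand of the endothelial receptor TIE2, rose from 892 ± 150.0 to 6203 ± 2528 normalized counts (SD, n = 5; log2 fold change 2.72, SE 0.27, edgeR adjusted p = 0.00309). Its log2 ratio was lowest in dog 1 (1.56) and highest in dog 4 (3.46). ANGPTL1, a secreted protein related to the angiopoietins, fell from 266 ± 64.5 to 76.8 ± 20.4 (log2 fold change -1.80, SE 0.19, adjusted p = 0.00382).

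In the list of PDGF genes and other regulators of angiogenesis, 9 of 18 genes had a symbol, including ESM1 and PLXDC1. PDGFRB, the PDGF receptor of mural cells and fibroblasts, fell by 0.74 on the log2 scale (SE 0.07, adjusted p = 0.00241), with log2 ratios between -0.85 and -0.68 in single dogs. PDGFC, a PDGF ligand, fell by 0.50 (SE 0.07, adjusted p = 0.00952), and AMOT, angiomotin, by 1.45 (SE 0.17, adjusted p = 0.00497), whereas the following genes were not called. THBS1, the antiangiogenic thrombospondin 1, averaged 3195 ± 2225 and 14644 ± 8953 normalized counts (log2 fold change 2.22, SE 0.45, adjusted p = 0.0233). VASH1, an inhibitor of angiogenesis made by endothelium, gave a fitted log2 difference of -0.90 (SE 0.15, adjusted p = 0.0122). SERPINF1, whose product is the antiangiogenic ligand of PLXDC1, had one of -1.39 (SE 0.23, adjusted p = 0.0123), so that ligand and receptor both had lower counts in all 5 dogs. EPAS1, the hypoxia-inducible factor 2 alpha of endothelium and adipocytes, had one of 0.53 (SE 0.11, adjusted p = 0.0260).

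**Figure D3:**
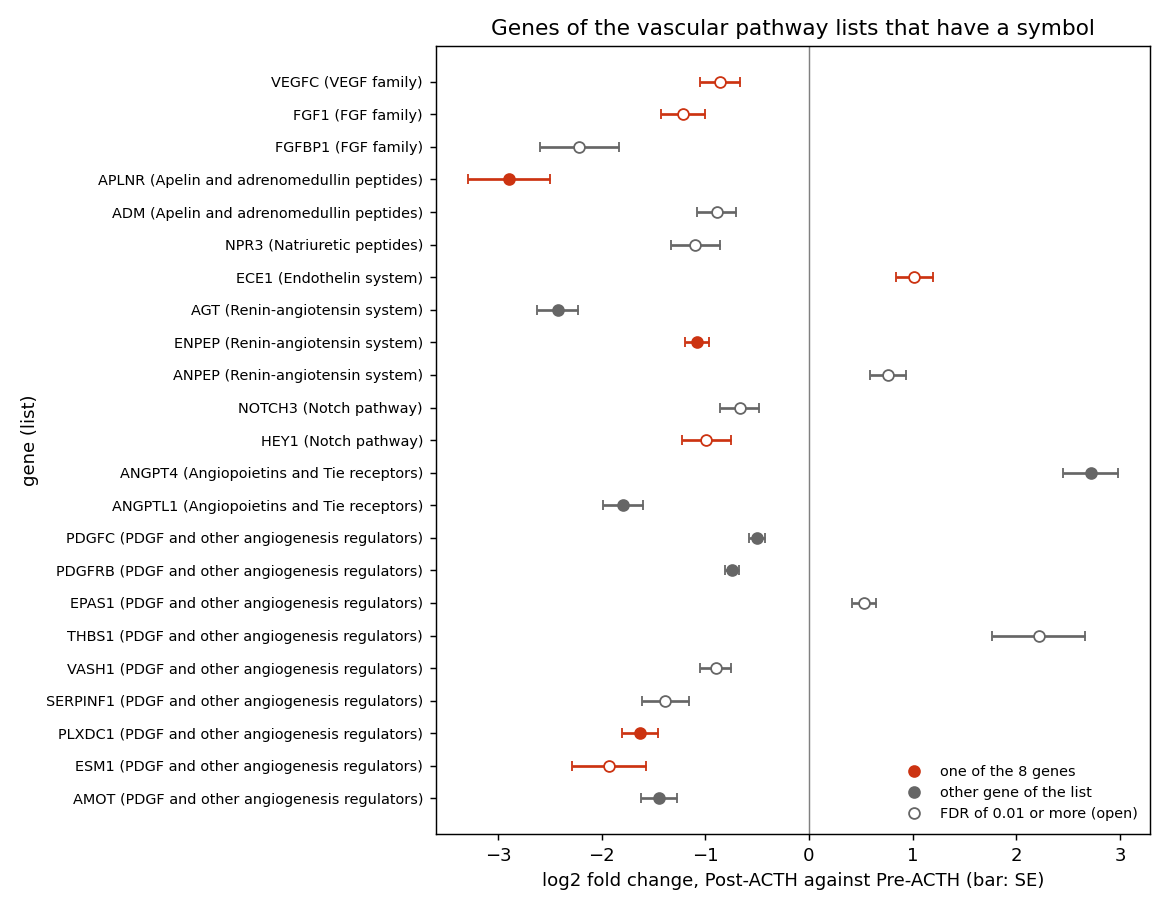
Fitted log2 fold change (horizontal axis) with its SE for the 23 genes of the pathway lists that have a symbol, red for the 8 genes and grey for the other 15, filled where FDR was under 0.01. ANGPT4 lies farthest to the right at 2.72 and APLNR farthest to the left at -2.89.

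Of 83 markers of cell types, 19 had a symbol, again through the study's list for this contrast, so a difference between the groups was given by the selection for each of them and the other 64 were not analysed here. CD34, found on endothelium and on adipose progenitors, was the 1 gene of 23 endothelial markers with a symbol, and it averaged 719 ± 120 and 505 ± 117 normalized counts (SD, n = 5; log2 fold change -0.53, SE 0.11, adjusted p = 0.0281). APLNR, ENPEP, ESM1 and PLXDC1 had a lower log2 ratio than CD34 in all 5 dogs, and VEGFC, FGF1 and HEY1 in 4 of 5. No lymphatic endothelial, mesothelial or blood cell marker had a symbol. Among fibroblast and progenitor markers 8 of 10 had one, all 8 had lower counts, and 4 were called (LUM, COL1A2, COL3A1 and PI16), against 1.97% of all tested genes. Their summed normalized count was 18984 to 43980 before treatment and 6258 to 10563 after it, with a median log2 ratio of -1.65 within dogs. COL3A1, DCN and COL1A2 have the largest shares of this sum. APLNR had a lower median log2 ratio than the sum. ESM1, with 2 to 8 reads per Post-ACTH library, had a median log2 ratio of -1.66. Its ratios carry a prior count of 2, which makes the ratios of genes with few reads smaller in size. The sum was taken without a prior count, so ESM1 is not placed beside it. The other 5 genes with lower counts did not have a lower median log2 ratio than the sum.

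Of 9 leukocyte markers, 4 had a symbol and lower counts, and CPA3, a mast cell protease, was called at 7 to 19 reads per Pre-ACTH and 0 to 1 per Post-ACTH library (edgeR adjusted p = 0.00798). CPA3 passed the filter for low counts only through the group in which it was higher. Their summed count was 1155 to 2532 in Pre-ACTH and 572 to 1288 in Post-ACTH. For mural cell markers, 4 of 11 had a symbol, 2 were lower (PDGFRB and NOTCH3) and 2 higher (MYH11 and DES), with a median log2 fold change of 0.11. PDGFRB, also a fibroblast gene, averaged 2318 ± 301 and 1379 ± 125 normalized counts (SD, n = 5), and MYH11, smooth muscle myosin, 487 ± 258 and 808 ± 153 (log2 fold change 0.89, SE 0.29, adjusted p = 0.0898). The sum of the 4, in which PDGFRB has the largest share, was 3084 to 3868 in Pre-ACTH and 2275 to 2895 in Post-ACTH. LIPE, the 1 adipocyte marker of 8 with a symbol and a major lipase of fat cells, was abundant in every library (19596 to 25067 normalized counts in Pre-ACTH and 27688 to 33574 in Post-ACTH, log2 fold change 0.48, SE 0.11, adjusted p = 0.0313). CKM, muscle creatine kinase, rose by 3.58 (SE 0.26, adjusted p = 0.00199), and DES gave a fitted log2 difference of 1.40 (SE 0.28, adjusted p = 0.0231). DES is on the mural list too, and together these 2 of 6 skeletal muscle markers summed to 49.8 to 261 normalized counts in Pre-ACTH and 648 to 1894 in Post-ACTH. The part of these cell types in the vascular genes' values was not tested. Of the 19 marker genes with a symbol, all selected on this contrast, 7 were called, against 1.97% of all tested genes. Without dog 2 it was 1 (0.00743% of all tested genes), without dog 3 it was 0 (0.0887%) and without dog 5 it was 4 (0.17%).

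The genes with the most similar profiles were searched among 1071 other genes with a symbol, by the RMS difference of centred log2 CPM over the 10 libraries. OAF was nearest to HEY1 (0.18), AEBP1 and AMOT to PLXDC1 (0.20 and 0.21), SLC7A2 and ALPK2 to ENPEP (0.24 and 0.26), and TUBB2A and LAMA3 to FGF1 (0.24 and 0.26). PLCG2 and CACNA1A were nearest to VEGFC (0.25 and 0.26), RCAN2 and AMOT to ESM1 (0.25 and 0.31), and SDC3 was the next nearest to HEY1 (0.25). For ESM1, whose reads were few, the prior count enters these differences too. ECE1 was nearest to SLCO2A1 and SHROOM1 (0.31 and 0.34). The smallest differences of APLNR were larger, with IL2RB at 0.50 and PI16 at 0.56. The median difference over the 1071 genes was between 0.76 and 1.40 for the 8 genes, and 1.40 was that of APLNR. The measure grows with the size of a change, so a larger difference alone does not set the profile of APLNR apart. All of these genes were selected on the same contrast, so likeness in treatment response is partly given.

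Whether the change differed between males and females was tested as an interaction, a measure the selection had not used. No gene of the 8 was called (edgeR quasi-likelihood test, FDR under 0.01), nor was any of the 13577 tested genes (0%). At an unadjusted p under 0.05, 1 of the 8 (FGF1) and 3.2% of all genes passed. DESeq2 called 0 of the 8, with 1 at an unadjusted p under 0.05, and 5 of all genes. The mean log2 ratio of FGF1 was -1.83 in the 2 females and -0.81 in the 3 males, a difference of 1.02 (SE 0.22, 95% interval 0.49 to 1.56, adjusted p = 1). The intervals of the other 7 genes included 0 and were wide, from -0.68 to 0.53 for ENPEP and from -1.52 to 2.57 for APLNR, so differences between the sexes of that size were not detectable with these dogs.

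**Figure D4:**
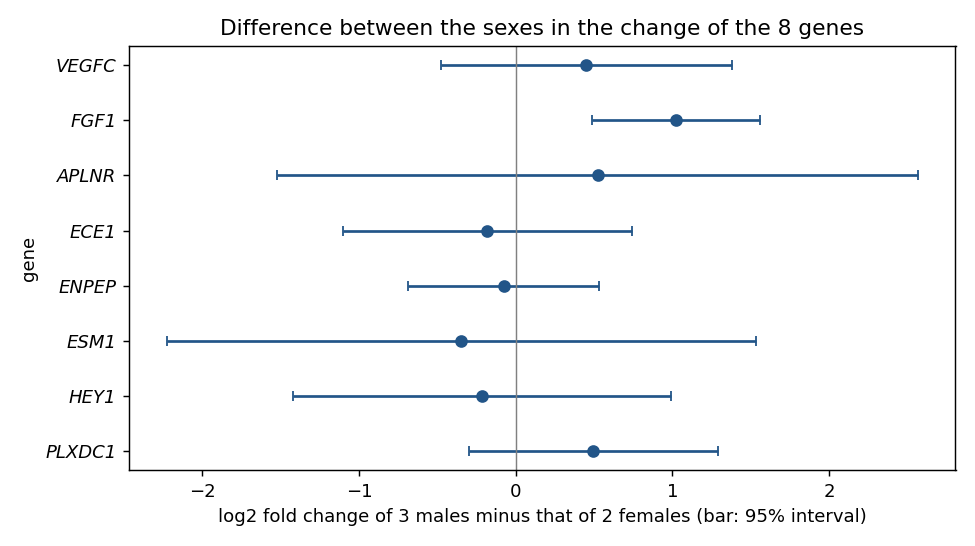
Log2 fold change in the 3 males minus that in the 2 females (horizontal axis) for each of the 8 genes, with the 95% interval of the edgeR fit, not adjusted for the number of genes. The interval of FGF1, from 0.49 to 1.56, is the 1 that does not include 0.

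The direction of the 8 genes did not turn in any of the 95 fits of single genes under 12 other settings. These were other tests, scalings and filters and each dog left out. As each gene had 1 direction in all 5 dogs and was selected on this contrast, a turn was hardly possible. No stability is read from it. The fitted log2 fold change ranged from -3.32 (without dog 1) to -2.54 (without dog 4) for APLNR, from -1.15 to -0.99 for ENPEP, from -1.77 to -1.45 for PLXDC1 and from -2.06 to -1.80 for ESM1. It ranged from -1.40 (without dog 4) to -1.02 (without dog 3) for FGF1, from -1.08 (without dog 5) to -0.74 (without dog 4) for VEGFC, from -1.13 (without dog 2) to -0.73 (without dog 4) for HEY1 and from 0.88 (without dog 4) to 1.17 (without dog 1) for ECE1. The edgeR, DESeq2 or limma-voom adjusted p was under 0.05 in 82 of the 95, which the selection of the genes partly gives. The calls at FDR under 0.01 varied more. At that threshold, 0 of the 8 genes were called in edgeR without dog 2, without dog 3 or without dog 5, 3 without dog 4 and 4 without dog 1. Of all genes tested, 1, 12, 23, 117 and 318 were called without dogs 2, 3, 5, 4 and 1, respectively. In the edgeR test without dog as a replicate block 2 were called (FGF1 and PLXDC1), with 1.93% of all genes. With DESeq2 and the block 7 were called, all but ESM1, with 8.69% of all genes, and this is the kind of test by which the study's list, and so these genes, had been selected.

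**Figure D5:**
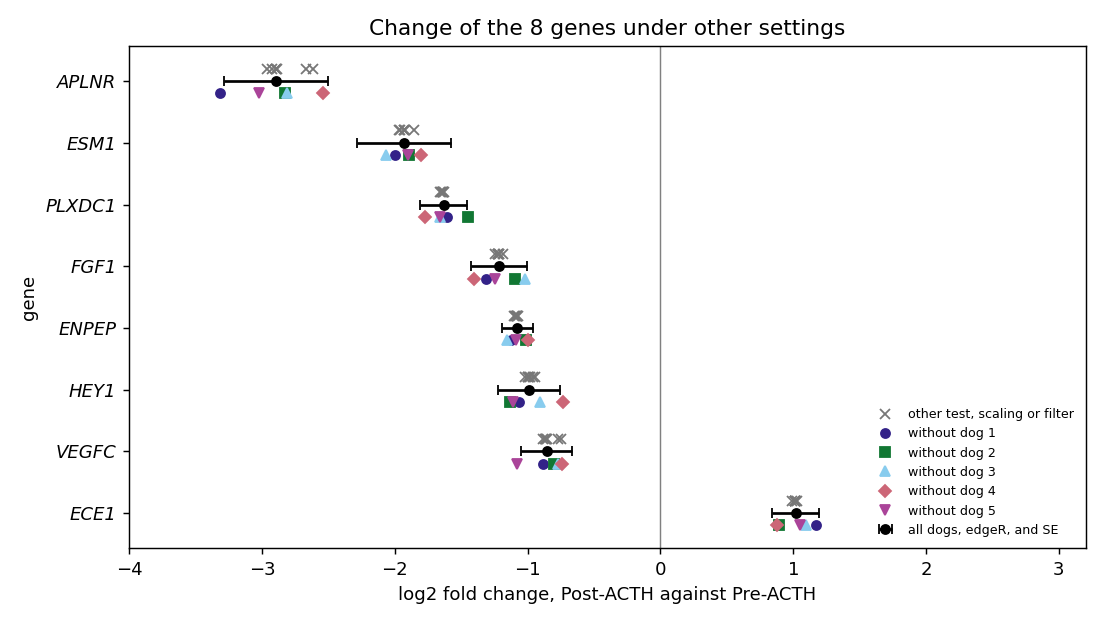
Fitted log2 fold change of Post-ACTH against Pre-ACTH (horizontal axis) for each gene, with black points and SE for all dogs in edgeR, grey crosses for other tests, scalings and filters, and coloured symbols for fits without 1 dog. No point crosses 0, and the widest range is that of APLNR, from -3.32 to -2.54.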

How the data were processed

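Total RNA of VAT was sequenced from 10 samples. After trimming, the authors mapped the reads to CanFam3.1 with STAR and assigned them to Ensembl genes with featureCounts; the deposited values are raw counts, 1 table per sample. Versions and the strand setting of the counting are not given in the sources used here, so reads of antisense partners cannot be told apart. The labels name a stranded mRNA library kit, whereas the methods of the study name a TruSeq version 2 kit and ribosomal RNA depletion.

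Quasi-likelihood fits and tests of edgeR 4.0.16 (R 4.3.3) were run on the counts, with TMM scaling and a term for each dog, for genes that reached 10 reads in any 1 library, with Benjamini-Hochberg adjustment over all genes and a threshold of FDR under 0.01. The SE is the absolute log2 fold change over the square root of F. Ratios of single dogs are differences of log2 CPM (prior count 2). Animal IDs in the labels gave the pairing. Deviations from the group means correlated between the 2 samples of a dog by 0.0772 to 0.412. DESeq2 1.42.0 and limma-voom (limma 3.58.1), no block, other scalings, filters and thresholds, and leaving out each dog were alternatives. The sex interaction in DESeq2 and without each dog was added after seeing the data.

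Symbols came from the study's Supplemental File S1 (1079 of its 1190 genes), whose fold changes and p-values were not used. The reference table of RefSeq genes holds another build and no Ensembl identifiers, so no coordinates or sequences are given. The 8 genes and the lists were chosen with earlier results of these data known. Named genes are the 8, the called genes and the gene with the lowest p of each list, and the 2 nearest profiles of each of the 8. The other pathway genes with a symbol, DES and MYH11 were named after their values were seen.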

Additional observations from a re-analysis of the deposited data

Results flagged for a closer look

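Of 46 groups of 5 samples examined (the 8 genes and the 15 other pathway genes in both groups), 3 held a sample far from the others by Dixon's criterion, which chance flags in about 1 of 20 groups. APLNR in Post-ACTH dog 1 was high, with 47.3 normalized counts against 9.66 in the nearest other dog. FGFBP1 in Pre-ACTH dog 1 was high, with 292 against 86.2. THBS1 in Pre-ACTH dog 3, the smallest library, was high, with 7072 against 3059.6. The cause was not tested for any of them.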

How the results depend on the processing

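The 8 genes kept their direction in all 95 fits, which their equal direction in all 5 dogs largely gave in advance. The counts of calls moved. The number of the 8 genes called at FDR under 0.01 was 3 in edgeR with the dog as a block. It was 7 with DESeq2 and the replicate block (8.69% of all genes called, against 1.97%), 5 with no filter for low counts (2.6%) and 8 at FDR under 0.05 (11.1%). It ran from 0 to 4 when 1 dog was left out, with 0.00743% to 2.37% of all genes. Without the replicate block it was 2 (1.93%). It was also 3 with limma-voom (2.54%), RLE factors (1.99%), total counts (2.06%) or 10 reads in 5 samples (1.83%), a filter that ESM1 did not pass. Of the 15 other pathway genes, 6 were called, 5 without the block, 15 with DESeq2 and the block and 14 at FDR under 0.05. With 1 dog left out it was 0 to 7, at 0.00743% to 2.37% of all genes. Of the 19 marker genes, 7 were called, also without the block. It was 6 with 10 reads in 5 samples, 19 with DESeq2 and the block and 15 at FDR under 0.05. In the fits with 1 dog left out it was 0 to 7, at the same shares of all genes. All these genes were named from the study's own paired DESeq2 list of these samples, so their calls with DESeq2 restate the selection. The lowest of these counts came without dog 2, 3 or 5 (1 of the 19 markers without dog 2, 0 without dog 3 and 4 without dog 5). Every fit without 1 dog has fewer residual degrees of freedom, also those without dog 1 or dog 4, in which 4 and 3 of the 8 genes were called. The cause of the difference between these fits was not tested. The sex interaction was called for 0 of the 8 genes in edgeR under total counts, the stricter filter, FDR under 0.05 and without each dog, and in DESeq2. As 0 of all genes were called in edgeR with all dogs, this says nothing of stability, and without dog 2 or dog 3 the 1 remaining female is assumed to vary like the males. Depth limits ESM1 and the Post-ACTH values of APLNR, which rest on 2 to 8 and 4 to 44 reads.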
